A study of Drosophila melanogaster with 6 samples.

Results

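Genes of the epidermal growth factor (EGF) receptor pathway were compared between ovaries of stwl bam double mutant females and ovaries of bam mutant females of Drosophila melanogaster, with 3 arrays of each genotype. The members were the receptor gene Egfr, the ligand genes spi, Krn and vn, the ligand protease gene stet, the feedback and inhibitor genes aos, kek1 and sty, and the repressor gene aop. They were taken as every probe set annotated to 1 of these genes, where a probe set is the group of short probes that gives 1 value per array. Of the 9 listed genes, 7 had such a probe set, among 11982 genes with one, and vn and stet were not analysed here. The 7 genes had 8 probe sets, 2 of them for sty, and all 8 were bright enough to be tested on all 6 arrays. The double mutants are labelled stwl bam without alleles, and the controls are labelled bam[delta86]. Both genotypes therefore carry a bam mutation, and the labels do not say whether the bam allele is the same in both. They name ovaries as the source and give no age. Flies were grown on cornmeal molasses food with dry yeast.

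In the fly ovary, EGF signals pass mainly from germ cells to the somatic cells beside them. Spitz, encoded by spi, is made as a membrane-bound precursor and freed by Rhomboid-type proteases such as Stet. It then binds the receptor on escort cells, which wrap the germ cells and promote their differentiation. The activated receptor signals through Ras and the MAP kinase Rolled to ETS-family transcription factors, of which Aop, also called Yan, is the repressor. Argos, Kekkon-1 and Sprouty, encoded by aos, kek1 and sty, dampen the pathway and are made in response to it in many tissues. The bam gene is needed for germ cells to differentiate, and germline stem cells are lost from ovaries without Stonewall, the chromatin protein that stwl encodes.

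The receptor gene Egfr, the secreted inhibitor gene aos and the repressor gene aop were each about 2-fold lower in stwl bam ovaries, by 1.97-fold, 2.15-fold and 1.98-fold. Neither measured ligand gene passed the test, with spi at 1.18-fold of its level in bam ovaries and Krn at 1.05-fold. Neither kek1 nor either probe set of sty passed, and one of the sty probe sets had a higher mean in stwl bam ovaries while the other had a lower one. In all, 3 of the 8 member probe sets fell, 0 rose and 5 did not pass in limma at an adjusted p of 0.05. With unadjusted p-values under 0.05 there were 3 lower and 3 higher ones, and a plain test that takes each probe set's spread alone called 2 lower and 0 higher. Over the whole array limma called 23.2% of the 11477 tested probe sets at the adjusted threshold, 11.2% as higher and 12.0% as lower. How many of them had an unadjusted p under 0.05 was not counted. The plain test called 608 of the 11477 higher and 571 lower. The limma fit, by contrast, moderates each spread by that of all tested probe sets. Changes are differences of log2 intensity after quantile normalization, stwl bam minus bam.

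**Figure D1:**
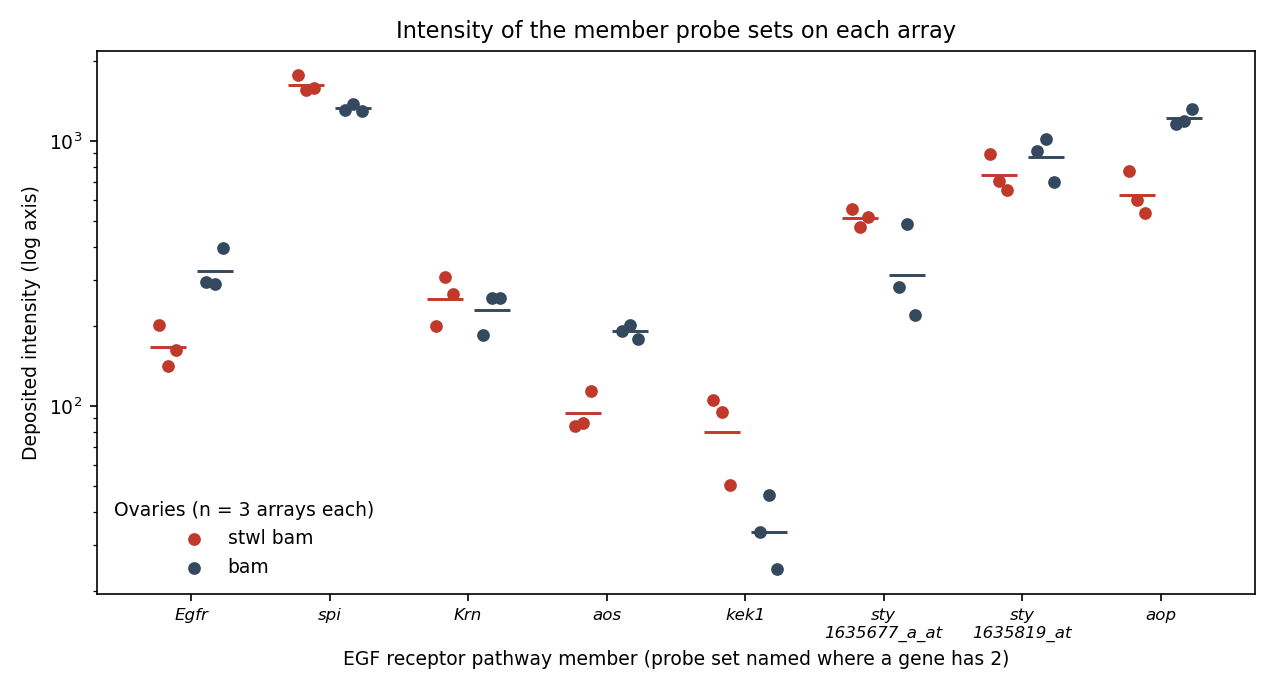
Deposited intensity (log axis, array units) of the 8 member probe sets, with 1 point per array and a line at the geometric mean of the 3 arrays of a genotype. Egfr, aos and aop lie lower on all 3 stwl bam arrays than on any bam array, and kek1 and spi lie higher. Heights of different probe sets are not comparable with each other.

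Egfr encodes the only EGF receptor of the fly, which is used in escort cells and in the follicle cells around growing egg chambers. Its probe set 1633948_a_at had deposited intensities of 202.8, 141.7 and 163.3 on the stwl bam arrays, against 293.5, 289.1 and 396.4 on the bam arrays. All stwl bam arrays lay below all bam arrays. The log2 level was 7.40 ± 0.25 in stwl bam ovaries and 8.38 ± 0.22 in bam ovaries (SD, n = 3 each). The change was -0.98 ± 0.17 (SE), with a 95% interval from -1.37 to -0.59 and a limma adjusted p of 0.00561. Only 3.35% of the tested probe sets had a lower change. With the plain test the adjusted p of Egfr, 0.0568, missed the threshold, and under the other alternatives it passed, from 0.00212 upward. Signal from Egfr was 4.73 to 15.0 times the background in stwl bam ovaries and 7.46 to 17.4 times in bam ovaries, where background is the level below which 95% of 44 control sets for bacterial and tag sequences lay. In whole ovaries, fewer cells of the type that expresses a gene and less RNA per cell cannot be told apart.

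Among the ligands, spi encodes Spitz, the main activating ligand. Its probe set 1627453_s_at had intensities of 1770, 1561.9 and 1582.8 on the stwl bam arrays and 1308.4, 1383.7 and 1304.7 on the bam arrays. The genotypes did not overlap. The change was 0.24 ± 0.08 (SE) on the log2 scale, with a 95% interval from 0.05 to 0.43. Its limma p was 0.0198 before adjustment and missed the threshold after it, at an adjusted p of 0.0714. The log2 level was 10.66 ± 0.08 in stwl bam ovaries and 10.41 ± 0.10 in bam ovaries (SD, n = 3 each). Under each of the 20 alternatives that were run the change of spi was above 0 and stayed short of the threshold, with limma adjusted p from 0.0604 to 0.200.

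Krn encodes Keren, a ligand related to Spitz that acts redundantly with it in some tissues. Probe set 1628325_at had intensities of 201.4, 306.5 and 265.0 on the stwl bam arrays and 185.6, 256.4 and 255.9 on the bam arrays. The genotypes overlapped, and the change was 0.08 ± 0.18 (SE) with a 95% interval from -0.33 to 0.48 and a limma adjusted p of 0.797. The interval leaves room for changes of either sign, and the sign turned without stwl bam replicate 2 (-0.06) and without bam replicate 1 (-0.01).

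The secreted inhibitor Argos, encoded by aos, binds Spitz and keeps it from the receptor. It had intensities of 84.1, 86.4 and 114.4 on the stwl bam arrays, against 192.1, 202.8 and 179.5 on the bam arrays, from probe set 1641578_at. The highest stwl bam array lay well below the lowest bam array. Its log2 level was 6.58 ± 0.24 in stwl bam ovaries and 7.69 ± 0.13 in bam ovaries (SD, n = 3 each). The change was -1.10 ± 0.17 (SE), with a 95% interval from -1.50 to -0.71 and a limma adjusted p of 0.00365. This was the largest fall among the member probe sets, and 2.25% of all tested probe sets had a lower change. Its call held under all 20 alternatives, with limma or plain test adjusted p from 0.00263 to 0.0333.

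Kekkon-1, a transmembrane inhibitor that binds the receptor, is encoded by kek1. Its probe set 1634071_at was the dimmest relative to background, with intensities of 105.0, 95.2 and 50.3 on the stwl bam arrays and 33.5, 46.3 and 24.3 on the bam arrays. The genotypes did not overlap, and the values were 1.76 to 7.79 times background in stwl bam ovaries and 1.07 to 1.50 times in bam ovaries. The change was 0.85 ± 0.30 (SE), with a 95% interval from 0.16 to 1.54, and it missed the threshold with a limma adjusted p of 0.0767. The SD of the log2 level was 0.56 in stwl bam ovaries, where replicate 3 lay apart from the other two, and 0.16 in bam ovaries (n = 3 each). Without stwl bam replicate 3 the change was 1.18 with a limma adjusted p of 0.0223, and with intensities as deposited it was 1.08 with a limma adjusted p of 0.0453. Over all 20 alternatives its adjusted p ran from 0.0223 to 0.280, in limma or the plain test. The added offset of 7.9 understates changes of a probe set as dim as this one.

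Sprouty, encoded by sty, acts inside the cell on signalling below the receptor. Its 2 probe sets gave different pictures. Probe set 1635677_a_at had intensities of 555.8, 476.0 and 515.4 on the stwl bam arrays and 282.4, 486.7 and 219.8 on the bam arrays. Replicate 2 of the bam ovaries stood apart from the other two and overlapped the stwl bam arrays. The change was 0.68 ± 0.24 (SE), with a 95% interval from 0.13 to 1.23 and a limma adjusted p of 0.0743. Without bam replicate 2 it was 0.96 and passed, with a limma adjusted p of 0.0155, the lowest over the 20 alternatives, where the highest was 0.253.

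The other sty probe set, 1635819_at, had intensities of 891.4, 704.8 and 655.4 on the stwl bam arrays and 917.2, 1018.1 and 700.0 on the bam arrays. The genotypes overlapped, and the change was -0.25 ± 0.18 (SE), with a 95% interval from -0.65 to 0.15 and a limma adjusted p of 0.347. The ratio of the first sty probe set to the second on the same array does not depend on how arrays are scaled. The log2 ratio was -0.68, -0.57 and -0.35 on the stwl bam arrays and -1.70, -1.06 and -1.67 on the bam arrays. It was thus higher on every stwl bam array than on any bam array, with a difference of 0.95 between the means. An exact two-sided permutation test of 3 against 3 arrays gave p = 0.1, the smallest it can give, and 0.2 after adjustment over the 4 ratios computed. This ratio was not among the planned tests, and it sets 2 probe sets with changes of opposite sign against each other. The ratio of 5' to 3' signal also differed, for actin 0.524 to 0.675 in stwl bam and 0.129 to 0.183 in bam ovaries. Its part in the sty ratio was not tested. In the array maker's naming, a set ending in a_at matches several transcripts of 1 gene, and the files do not say which sty transcripts each set reads.

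At the end of the pathway, Aop is an ETS-family repressor that activated MAP kinase removes from the nucleus. Its probe set 1627394_s_at had intensities of 772.6, 598.5 and 535.0 on the stwl bam arrays, against 1156.1, 1196 and 1323.5 on the bam arrays. Every stwl bam array lay below every bam array, and the bam arrays lay close together. The log2 level was 9.30 ± 0.26 in stwl bam ovaries and 10.29 ± 0.06 in bam ovaries (SD, n = 3 each). The change was -0.99 ± 0.13 (SE), with a 95% interval from -1.28 to -0.69 and a limma adjusted p of 0.00166, and 3.26% of all tested probe sets had a lower change. The call of aop held under all 20 alternatives, with adjusted p from 0.000319 to 0.0391. The names of the spi and aop probe sets end in s_at, which marks probes shared with other transcripts, and the annotation used here pairs each with 1 gene.

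**Figure D2:**
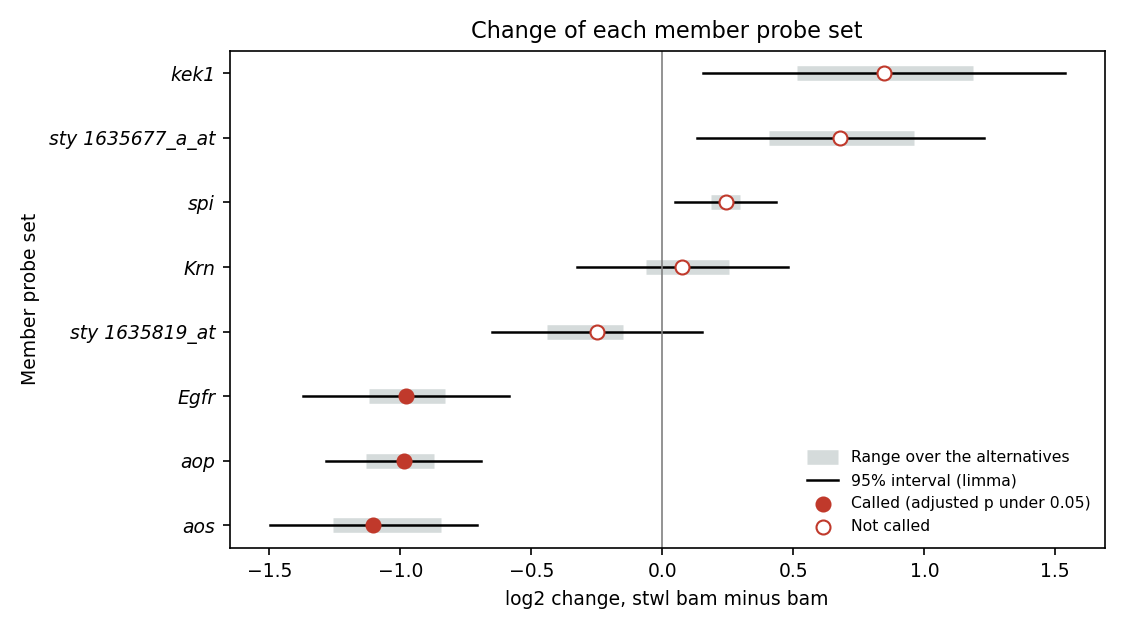
Change of each member probe set on the log2 scale (stwl bam minus bam), with the 95% limma interval as a line and the range over the 20 alternatives as a grey bar. Filled points passed an adjusted p of 0.05: aos, aop and Egfr, at -1.10, -0.99 and -0.98. The intervals of kek1, spi and sty 1635677_a_at lie above 0, and those probe sets missed the adjusted threshold.

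After normalization, 6 of the 8 member probe sets had no overlap between genotypes, 3 with stwl bam lower and 3 with stwl bam higher. Over all tested probe sets this held for 41.1%. For each of these 6 the exact two-sided permutation p was 0.1, the smallest that 3 against 3 arrays allow. Only on the normalized scale did sty 1635677_a_at belong to the 6, since its deposited intensities overlapped. There its genotypes were barely apart, with log2 levels of 8.907 on stwl bam replicate 2 and 8.905 on bam replicate 2.

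Ratios of 2 probe sets on the same array were used to set the members against the receptor, a choice made after their values were seen. Such a ratio is free of array scaling, and only its difference between genotypes has a meaning, since probe sets differ in brightness. These differences largely follow from the single changes already given for each probe set. The ratios and their p-values therefore describe the same values again and are no separate evidence. The log2 ratio of spi to Egfr was 3.13, 3.46 and 3.28 on the stwl bam arrays and 2.16, 2.26 and 1.72 on the bam arrays. It did not overlap and was higher in stwl bam ovaries by 1.24, with an exact permutation p of 0.1. The ratio of aos to Egfr was -1.27, -0.71 and -0.51 on the stwl bam arrays and -0.61, -0.51 and -1.14 on the bam arrays. These overlapped, with a difference of -0.08 and an exact permutation p of 0.6. For aop over Egfr the log2 ratio averaged 1.91 ± 0.18 in stwl bam ovaries and 1.92 ± 0.16 in bam ovaries (SD, n = 3 each). That difference was -0.02, with overlapping arrays and an exact permutation p of 0.9. After adjustment over the 4 ratios the p for spi was 0.2, that for aos 0.8 and that for aop 0.9.

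**Figure D3:**
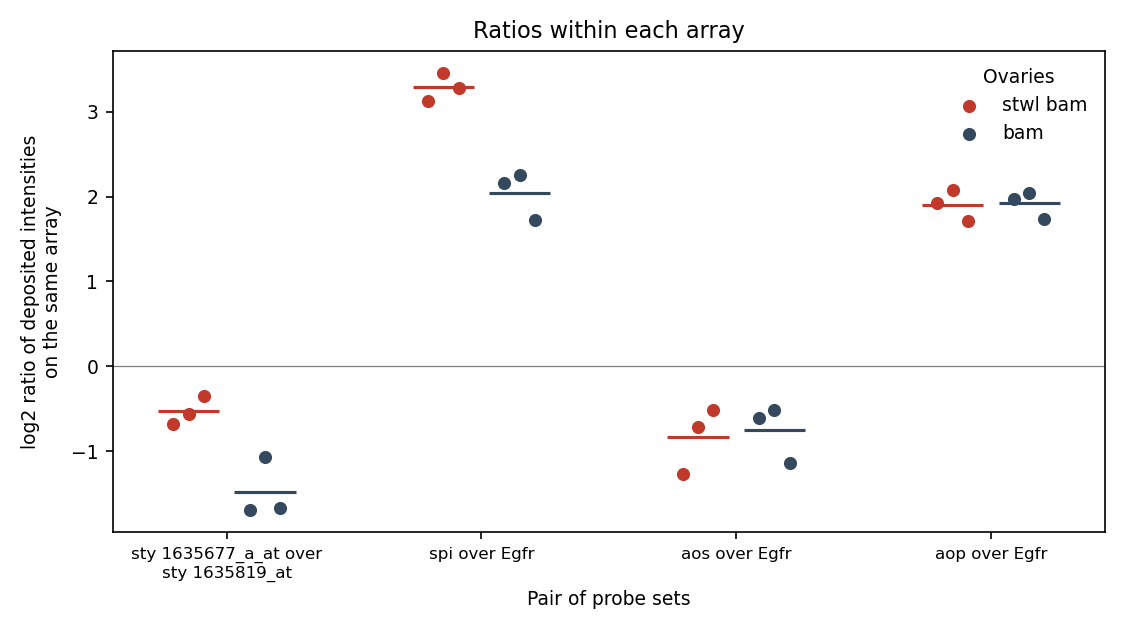
Log2 ratio of the deposited intensities of 2 probe sets on the same array, with 1 point per array and a line at the mean of 3. The sty pair and spi over Egfr are higher on every stwl bam array, by 0.95 and 1.24 on average, and aos and aop over Egfr overlap between the genotypes.

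Members also differed in how they varied within a genotype. The SD of the log2 level over the 3 arrays ran from 0.08 for spi to 0.56 for kek1 in stwl bam ovaries, and from 0.06 for aop to 0.55 for sty 1635677_a_at in bam ovaries. Over the 6 arrays the Pearson correlation of Egfr was 0.96 with aop, 0.87 with aos and 0.40 with sty 1635819_at. It was -0.80 with sty 1635677_a_at, -0.79 with spi, -0.74 with kek1 and -0.41 with Krn. These values share the 6 arrays and hold the difference between genotypes in them. The genes most like Egfr over the 6 arrays were dlp, cype, Atg13, CG31974 and flfl, each with r above 0.99, and 299 tested probe sets reached an r above 0.95. For aos they were be, Vha55, CG13029, cutlet and ana, with 226 probe sets above 0.95. dlp, which encodes a cell surface glypican, had an r of 0.997 with Egfr and a change of -0.54.

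Other genes of the pathway were read from 5 lists, with 1 probe set a gene, beside a list of other receptor tyrosine kinases. Of 67 genes in the 5 pathway lists 48 were tested, 2 fell below the filter and 17 had no probe set named here, among them the genes for Ras, Raf, the MAP kinase Rolled and the activator Pointed. Over the 5 pathway lists 14 genes fell, 3 rose and 31 did not pass in limma, 35.4% called against 24.1% of all 8764 genes tested (11.1% higher, 13.0% lower). The median change was -0.35, against -0.04 over all tested genes. The plain test called 5 lower and 0 higher over these lists. With the other receptor tyrosine kinases added, 18 of 55 tested genes fell and 3 rose, 38.2% called, with a median of -0.37. The shares of all genes tested, 11.1% higher and 13.0% lower, also stand beside the count of each list below. Whether any list departed from them was not tested. The share of all genes with an unadjusted p under 0.05 was not counted here either. Over these 6 lists 8 were called lower without bam replicate 1 or without stwl bam replicate 3, and 9 without bam replicate 3.

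Of 3 tested ligand and ligand processing genes 1 rose, cni, and 2 did not pass. cni encodes Cornichon, which carries the ligand Gurken out of the endoplasmic reticulum, and its change was 0.32 ± 0.09 (SE) with a limma adjusted p of 0.0359. That call was lost when any array except stwl bam replicate 1 was left out. The oocyte ligand gene grk was at 0.27 and Star (S), which carries Spitz through the secretory pathway, at -0.49, with limma adjusted p of 0.171 and 0.101.

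In the Ras-MAPK cascade 5 of 15 genes fell, 0 rose and 10 did not pass. Of all genes tested, 13.0% were called lower and 11.1% higher. Unadjusted p-values under 0.05 marked 8 of the 15 as lower and 0 as higher, and the plain test called 2 lower and 0 higher. The scaffold gene cnk had intensities of 477.5, 375.8 and 366.9 on the stwl bam arrays and 696.5, 718.9 and 781.6 on the bam arrays. Its groups did not overlap, and it fell by 0.87 ± 0.12 (SE) with a limma adjusted p of 0.00199. dos, an adaptor of receptor tyrosine kinases, changed by -0.71, and Sos, the exchange factor that activates Ras, by -0.70. sl, which encodes phospholipase C gamma, changed by -0.69 and the Ras scaffold gene Sur-8 by -0.43. The calls of cnk and sl held under all 20 alternatives, while Sos, dos and Sur-8 each lost theirs without stwl bam replicate 3 or bam replicate 1, among others. The MAP kinase kinase gene Dsor1 was at -0.08 and did not pass.

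Of 11 negative regulators 2 fell, 1 rose and 8 did not pass. Mkp3, the phosphatase that inactivates the MAP kinase, rose by 0.66 ± 0.16 (SE) with a limma adjusted p of 0.019, and its other probe set was at -0.05. The Ras GTPase-activating protein gene vap fell by 0.56, a call that held under all 20 alternatives. Nf1, which encodes another such protein, changed by -0.56, while its other probe sets were at 0.29 and 0.95, the last past the threshold. A dimmer probe set of Cbl, the ubiquitin ligase of the receptor, changed by -0.81 with a limma adjusted p of 0.0281, while the one that stood for the gene was at 0.25 and did not pass. Mkp3 lost its call without stwl bam replicate 3, bam replicate 2 or bam replicate 3, and Nf1 without stwl bam replicate 3 or bam replicate 1.

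Of 11 nuclear effectors and targets 4 fell, 0 rose and 7 did not pass, with 5 lower and 0 higher at an unadjusted p under 0.05 and none called by the plain test. The eye development gene sno changed by -0.98, the corepressor component gene ebi by -0.56, the ubiquitin ligase gene sina by -0.54 and the corepressor gene gro by -0.48, with limma adjusted p from 0.00692 to 0.0343. Of these, ebi, sina and gro lost their call without stwl bam replicate 3 or bam replicate 3. edl, which encodes a binding partner of Pointed and Aop, was at -0.36 with a limma adjusted p of 0.128. A second probe set of mirr, a target in follicle cells, was higher by 1.01 with a limma adjusted p of 0.00847, while the one that stood for the gene was at -0.49 and did not pass. br, a follicle cell gene under the pathway's control, was at -0.82 and did not pass. Its intensities were 33.0, 163.6 and 57.1 on the stwl bam arrays and 146.4, 101.8 and 117.0 on the bam arrays. Replicate 2 of stwl bam thus stood apart, as it did for pip, with 33.6, 177.7 and 42.1 on the stwl bam arrays. The other probe sets of br were at -1.17, with a limma adjusted p of 0.0389, and at -0.15.

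Among 8 genes of receptor trafficking, 3 fell, 1 rose and 4 did not pass, where 13.0% of all genes tested were lower and 11.1% higher. mop, a phosphatase-like protein needed for sorting of the receptor in endosomes, had intensities of 674.9, 431.3 and 394.1 on the stwl bam arrays and 959.8, 965.4 and 1347.4 on the bam arrays. It fell by 1.16 ± 0.20 (SE) with a limma adjusted p of 0.00501. The epsin gene lqf changed by -0.54 and Stam, of the first endosomal sorting complex, by -0.44, while Vps25, of a later one, changed by 0.37. For comparison, 4 of 7 other receptor tyrosine kinase genes fell and 0 rose, beside the same shares of all genes. Unadjusted p-values under 0.05 marked 4 of the 7 as lower and 0 as higher, while the plain test called none. tor changed by -0.96, Ret by -0.94, htl by -0.74 and Pvr by -0.37. Of these, htl kept its call when any single array was left out, and tor, Ret and Pvr each lost theirs when stwl bam replicate 3 or any 1 of the bam arrays was left out. Stam lost its call without bam replicate 1 or 3, and Vps25 without bam replicate 1, bam replicate 3 or either of stwl bam replicates 2 and 3.

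**Figure D4:**
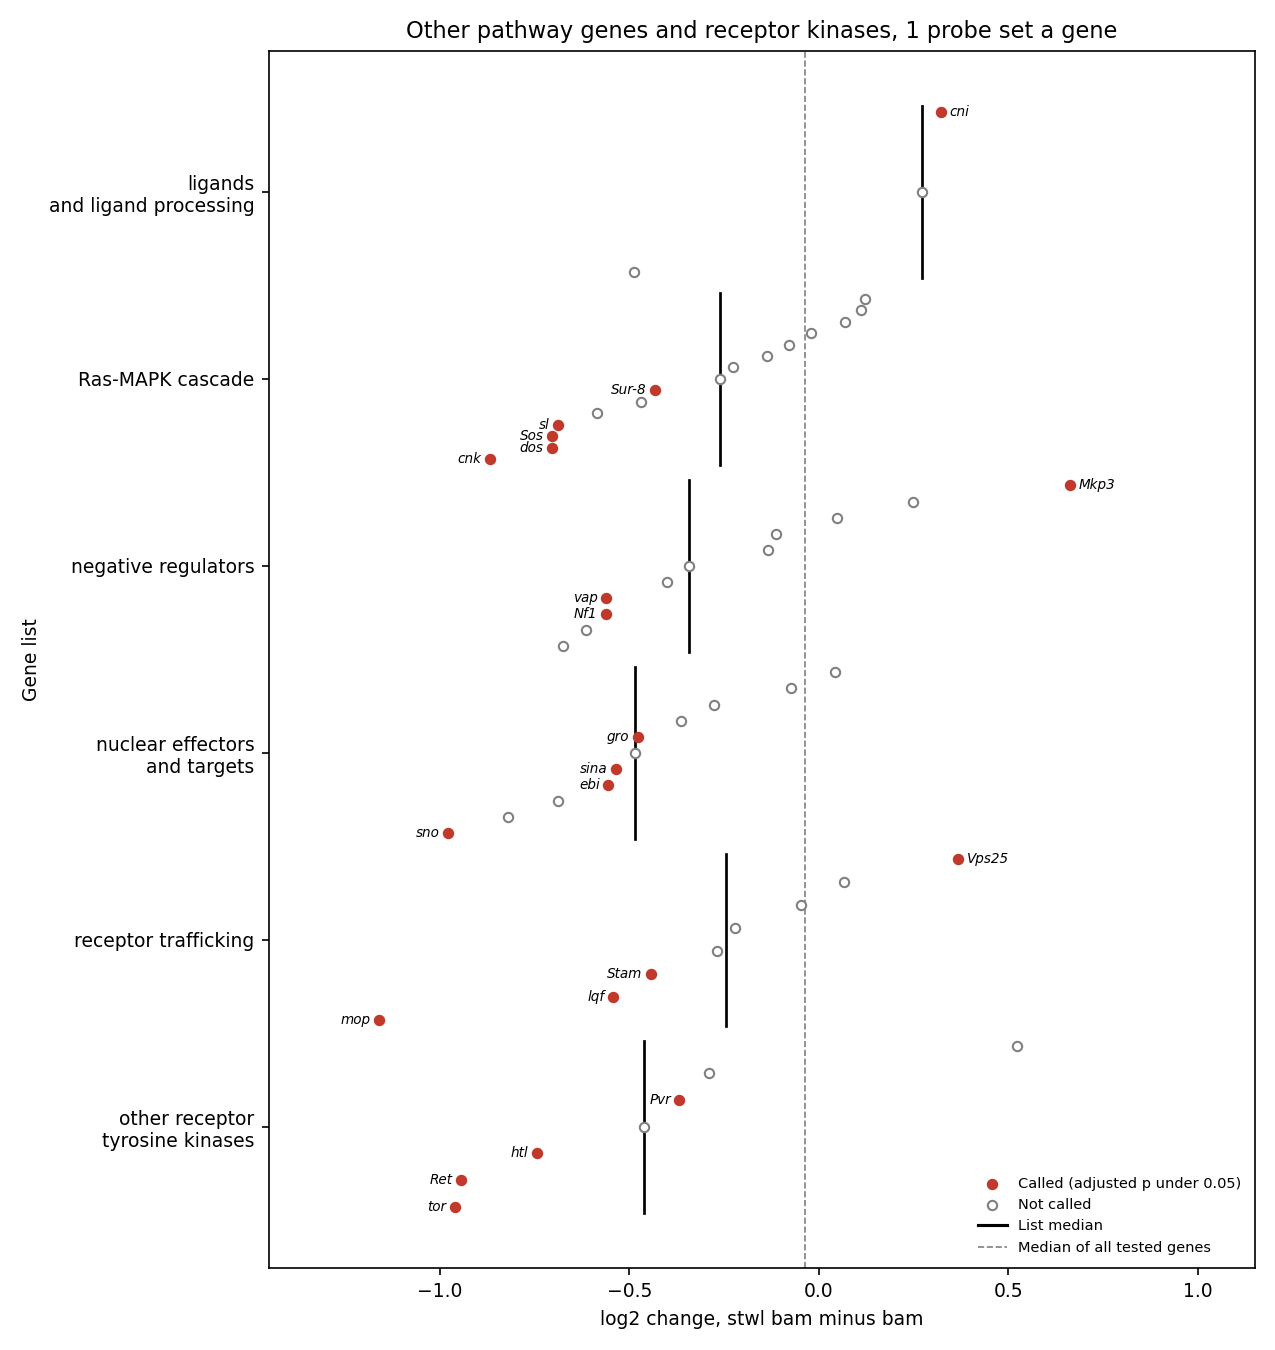
Change on the log2 scale (stwl bam minus bam) of the 55 tested genes in 5 pathway lists and 1 list of other receptor tyrosine kinases, each point 1 gene. Filled points passed an adjusted p of 0.05, black lines are list medians and the dashed line is the median of all tested genes, -0.04. The lowest point is mop at -1.16 and the highest is Mkp3 at 0.66.

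Several measures moved with genotype beside these results, and their part in them was not tested. The ratio of 5' to 3' signal, a measure of RNA integrity and labelling, was 0.524 to 0.675 in stwl bam ovaries and 0.129 to 0.183 in bam ovaries for actin. For eIF-4a it was 0.417 to 0.448 in stwl bam and 0.080 to 0.108 in bam ovaries, and for GAPDH 0.258 to 0.374 in stwl bam and 0.124 to 0.152 in bam ovaries. The 2% to 98% trimmed mean was 219.6 on bam replicate 1 and 248.9 to 249.8 on the other arrays before normalization. The stwl probe set itself changed by -0.31 with a limma adjusted p of 0.396, and the labels do not say whether the allele alters the part it reads, so it checks no label. The bam probe set had intensities of 384.4, 174.9 and 287.0 on the stwl bam arrays and 87.5, 103.2 and 99.0 on the bam arrays, with no overlap. Its change was 1.29 ± 0.26 (SE), 2.45-fold, with a limma adjusted p of 0.00935. Both genotypes are labelled as bam mutants, and what of the bam transcript remains in either is not stated there.

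Markers of the ovary's cell types were read as summed intensity after normalization, and no tested marker list had a gene below background on all 6 arrays. Against the counts below, limma called 24.1% of all 8764 genes tested, 11.1% as higher and 13.0% as lower. Whether any marker list departed from these shares was not tested. The share of all genes with an unadjusted p under 0.05 was not counted. Of 10 tested markers of ovarian somatic cells, the cells that use Egfr, 2 fell (eya and Lar), 0 rose and 8 did not pass. Unadjusted p-values under 0.05 marked 4 of these as lower and 0 as higher, and 2 were lower in the plain test. The sum of the list, with en and Wnt6 included, was 6436 to 7272 in stwl bam ovaries and 7454 to 8223 in bam ovaries. Lamp1 was by far the brightest gene in it, with deposited intensities of 4096.4 to 4291.4 in stwl bam and 3938.7 to 4539.4 in bam ovaries. The change of Lamp1 was -0.13 and did not pass. Lamp1 made up most of the sum, and whether it is limited to somatic cells was not tested. The sum is therefore no measure of somatic cell content. The gene tj, a defining gene of escort and follicle cells, was at 0.40 ± 0.38 (SE) and zfh1 at 0.11, neither past the threshold. For tj the stwl bam intensities were 104.3, 263.9 and 153.3, with replicate 2 the highest. The other somatic markers that did not pass were bab2 at 0.33, hh at -0.09, ptc at -0.21, cas at -0.33 and bab1 at -0.58. The list's median was -0.17. The somatic markers en and Wnt6 fell below the filter. Of 10 germ cell markers 2 rose, tud at 0.62 and piwi at 0.40, and 2 fell, ovo at -0.84 and otu at -0.67. The sums, which hold these opposite changes, were 10346 to 11668 in stwl bam and 11064 to 11640 in bam ovaries. The germ cell gene vas was at -0.18 and did not pass. Of 9 haemocyte markers 6 fell, with sums of 4320 to 5280 in stwl bam ovaries and 7598 to 8041 in bam ovaries. Of 8 muscle markers 5 rose, with sums of 19370 to 25245 in stwl bam and 13503 to 14321 in bam ovaries. Of 7 fat body markers 2 rose (Tsf1 and apolpp), and the other 5 had changes from -1.24 for Yp2 to -0.52 for Lsp2 that did not pass, 2 of them with an unadjusted p under 0.05. The list's median was -0.53, with sums of 10713 to 25892 in stwl bam and 20959 to 23702 in bam ovaries. On stwl bam replicate 2 the deposited intensity of Yp2 was 14608.7, against 2017.4 and 2785.8 on replicates 1 and 3. Yp1 had 10508.7 there, against 3109.6 and 3857.3. On each bam array Yp1 and Yp2 were the brightest genes of the list, so its sum mostly follows them. Which cells their transcripts came from was not tested, so this sum is not a measure of fat body alone. Of 3 tracheal markers 1 rose, with sums of 163.1 to 612.4 in stwl bam and 83.4 to 194.2 in bam ovaries.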

How the data were processed

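Values were read for 6 one-colour arrays, 3 of stwl bam and 3 of bam ovaries, grouped by the labels. Each array has 1 linear intensity per probe set, as deposited. Per the submitters' processing notes GCOS made them, with version and settings not stated there. Trimmed means differed by over 5%, so arrays were quantile-normalized without the 183 control sets. Before log2, 7.9 was added (25th percentile of the deposited intensities), and probe sets at or above the 40th percentile of their array on at least 3 arrays were kept, 11477 of 18952. The test was limma 3.58.1 under R 4.3.3 (lmFit and trended eBayes, two-sided, Benjamini-Hochberg over all kept probe sets, threshold 0.05). The fit was tested on simulated data.

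Of 18952 probe sets, 13647 had 1 gene, 402 several and 4903 none (183 of these controls) in the annotation used, and 13544 matched a RefSeq gene number. The probe set with the highest mean stood for a pathway gene. From each list up to 6 passing genes are named by size of change. No files name an assembly, so no coordinates are printed. Members and lists were chosen with earlier results of these data known. No label states separate dissections, so the p-values cover the spread among these arrays alone, which may be technical. The number of arrays limits the precision. Same-numbered samples of the genotypes did not deviate together, so no pairing was used.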

Additional observations from a re-analysis of the deposited data

How the results depend on the processing

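Of the 20 alternatives, run for every member, 2 were added after seeing the data: setting values below background to it, and a fit on replicates 2 and 3 only. The falls of aos and aop kept direction and call under all 20, with changes from -1.26 to -0.85 and from -1.13 to -0.87. Egfr ranged from -1.12 to -0.83 and lost its call with the plain test alone (-0.98, adjusted p 0.0568). Leaving out single arrays, member probe sets called lower stayed at 3 and called higher ranged from 0 to 1. The changes then ran from -0.062 to 0.25 for Krn, from 0.64 to 1.18 for kek1 and from 0.41 to 0.96 for sty 1635677_a_at. Krn turned its sign without stwl bam replicate 2 (-0.062) and without bam replicate 1 (-0.01). With intensities as deposited, 1 member was called higher, kek1 at 1.08. The cause was not tested.

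Over the whole array, single arrays left out gave 708 to 1309 higher and 668 to 1481 lower probe sets, against 1286 and 1381 with all arrays. The plain test gave 608 and 571, a threshold of 0.01 gave 573 and 535, and replicates 2 and 3 only, with fewer samples, gave 752 and 816. Of the calls 48.2% were higher, and 58.1% with intensities as deposited (1289 higher and 930 lower). Of the 55 tested genes in the 6 lists (48 of the pathway and 7 other receptor tyrosine kinases), 3 were higher and 18 lower with all arrays, and 0 to 3 and 8 to 20 when single arrays were left out. The plain test gave 0 and 5, the threshold of 0.01 gave 0 and 7, replicates 2 and 3 only gave 1 and 10, and a fit without trend gave 1 higher.

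The deviations of same-numbered samples correlated at -0.05, -0.03 and 0.00, which gives no sign of pairing by number. Whether same-numbered arrays were processed together is not stated in the labels. With the replicate block 3 member probe sets were lower and 0 higher, 18 genes of the 6 lists were lower and 2 higher, and 1162 probe sets were higher and 1225 lower over the array. No member lost or gained a call with the block. Signal over background limits kek1 most.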
